A study of Mus musculus with 4 samples.

Results

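The elastic fibre and microfibril genes described here are 10 of the 34816 gene names on the array: Eln, Fbn1, Fbn2, Fbln1, Fbln2, Fbln5, Efemp2, Mfap2, Mfap4 and Mfap5. They were taken as every non-control probe whose gene name is one of these symbols, which gave 15 of 55681 probes. NIH3T3, an established fibroblast line from mouse embryos, had been made to express EGFR, a receptor tyrosine kinase for epidermal growth factor, either in its wild-type form or as a deletion mutant. Total RNA of cells at steady state was labelled with Cy3 and hybridised to 1-colour arrays, 2 arrays per group. Both groups carry an introduced receptor, and no cells without one were analysed here. The species of the receptor, the extent of its deletion, the promoter that drives it and whether a line is 1 clone are not given in the sources used here. The series is titled as a study of gene regulation by oncogenes of lung cancer, and the comparison asks which transcripts differ between the receptor forms. Each array had its own cDNA preparation, but nothing says that the cultures were separate, so the p-values rest on a spread between arrays that may be technical.

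Elastic fibres let skin, lung and arteries recoil. They consist of a core of elastin, which lysyl oxidases crosslink, and a mantle of microfibrils, which are polymers of fibrillin decorated with small glycoproteins. Fibulins join elastin to the microfibrils and to the crosslinking enzymes, and the microfibrils also hold latent TGF-beta and bone morphogenetic proteins in the matrix. Fibroblasts and smooth muscle cells are the usual producers.

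The 60 bases of each probe decide which part of a transcript was measured, so the first 30 bases of the probes behind most of the main values are shown, 5′ to 3′ and all in lower case, together with the Eln probe and the dim Fbln5 probe. They come from the array files, whose probe coordinates are on mm9. The intron, exon or untranslated position of the probes was not analysed here, since no mm9 annotation was used.
Mfap4, chr11:61302147-61302206, plus strand: atatgtggggctggaagtgggtgggtagca
Fbln5, bright probe, chr12:102988153-102988212, minus strand: ttaagagtttttacccaactgtgttggaag
Fbln5, dim probe, chr12:102984878-102984937, minus strand: agacaaaactagaacatgacctcttttagt
Fbn1, chr2:125126727-125126786, minus strand: tcacttatgagtatggtgcagtacatgtaa
Fbln2, chr6:91222118-91222177, plus strand: ctcaactatggctacagctgacattccatt
Efemp2, chr19:5481762-5481821, plus strand: ctcccatagcttaagcagccccgggggcct
Eln, chr5:135179129-135179188, minus strand: ataccggaagccttgacgatggatttggtg

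On each array, between 42.9% and 46.9% of all probes carried the scanner software's flag for a signal well above background, and no spot was saturated. The lowest signal with this flag ranged from 25.9 to 35.8 intensity units over the 4 arrays. All 4 arrays lay on 1 slide, with wild-type arrays in 1 column of the slide and deletion-mutant arrays in another, so column and group cannot be told apart. Levels are given below as intensity units of the processed signal, or as log2 signal relative to the 75th percentile of the same array. All 7 fibroblast markers (Col1a1, Col1a2, Col3a1, Pdgfra, Pdgfrb, Thy1 and Vim) were well above background on all 4 arrays. In these bulk samples, fewer cells of a type and less RNA per cell cannot be told apart.

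Every member that could be tested was lower in deletion-mutant cells, from Efemp2 at 1.45-fold to the microfibril glycoprotein Mfap5 at 25.1-fold. These were 7 members, Fbn1, Fbn2, Fbln2, Fbln5, Efemp2, Mfap4 and Mfap5, and each passed an adjusted p of 0.05 in limma, a linear model across all 18093 tested features. Elastin itself and Fbln1 were not well above background on any array, Mfap2 was on 1 wild-type array alone, and none of these 3 was tested. Among all tested features, 24.2% were called lower in deletion-mutant cells and 34.6% higher. Of the 7, Fbn2, Mfap4 and Mfap5 entered the test only through the wild-type arrays, so their difference was partly set by the filter. The remaining 4, Fbn1, Fbln2, Fbln5 and Efemp2, were well above background on all 4 arrays, where 23.6% of such features were called lower.

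Elastin, the core protein of the fibre, was represented by 1 probe. It gave 16.3 and 9.24 intensity units on the wild-type arrays and 24.9 and 7.36 on the deletion-mutant arrays. The groups overlapped, no array was well above background, and no fold is given. The single probe does not show that the transcript was absent, only that it was not detectable with this probe.

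Fibrillins are the large glycoproteins that polymerise into the microfibril. Fbn1, the fibrillin mutated in Marfan syndrome, had 940.4 and 994 intensity units on the wild-type arrays and 349.5 and 342.7 on the deletion-mutant arrays. Both deletion-mutant arrays lay below both wild-type arrays, and the 2 arrays of each group were close to each other. The fall was 2.67-fold (log2 fold change -1.42 ± 0.071 SE, limma adjusted p = 0.000586, with n = 2 arrays in each group here and below).

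Fbn2, the fibrillin most active in development, lies on chromosome 18 and had a dim signal throughout. Its brighter probe gave 54.3 and 59.6 intensity units on the wild-type arrays, both well above background. On the deletion-mutant arrays it gave 26.0 and 41.5, neither of them well above background, so only a bound can be stated. Fbn2 was at least 1.58-fold lower, a log2 bound of -0.66 (limma adjusted p = 0.0394). Several alternatives gave a smaller fitted fall than this bound, with log2 fold changes of -0.25 under normexp correction, -0.44 without deletion-mutant replicate 1 and -0.54 under median scaling. The bound sets the bright group's mean against, on each array of the dim group, the higher of the probe's own signal and the lowest signal well above background. The call was lost under median scaling (adjusted p = 0.0799), under quantile normalization (0.0854) and without either wild-type array (0.135 without replicate 1 and 0.149 without replicate 2). The second Fbn2 probe, 3532 bases away, lay between 7.08 and 13.2 intensity units and was not well above background on any array.

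Microfibril-associated glycoproteins bind fibrillin. Mfap5, also called MAGP-2, binds fibrillins and growth factors, and it had the largest fitted fold of the members. It measured 1005 and 1105 intensity units on the wild-type arrays and 40.7 and 39.3 on the deletion-mutant arrays. The groups were far apart, and 1 of the 2 deletion-mutant signals was still well above background. The difference was 25.1-fold (log2 fold change -4.65 ± 0.078 SE, limma adjusted p = 0.000146), and it ranked 35 among the 18093 fold changes, counted from the lowest. With normexp background correction, whose offset of 50 compresses the folds of dim spots, the log2 fold change was -3.20.

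Mfap4, a protein with a fibrinogen-like domain that binds elastin and fibrillin, had 299.7 and 384.3 intensity units on the wild-type arrays. On the deletion-mutant arrays it had 20.6 and 25.0, which were not well above background. Mfap4 was therefore given a background bound, which was 10.1-fold lower. The fitted log2 fold change was -3.84 (limma adjusted p = 0.000285). The wild-type arrays differed more from each other than for Mfap5, by 0.19 (SD, log2), and still lay far above both deletion-mutant arrays. Normexp correction gave a log2 fold change of -1.88, a smaller fold than this bound.

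Mfap2, or MAGP-1, the close relative of Mfap5, was not detected in a comparable way. Its probe at chr4:140570920-140570979 had 14.5 and 35.6 intensity units on the wild-type arrays and 19.9 and 23.2 on the deletion-mutant arrays. Only the second wild-type array was well above background, and the groups overlapped. The other Mfap2 probe, 908 bases away, lay between 19.6 and 30.2 with no array well above background. A comparison of Mfap2 with Mfap5 is therefore not possible here.

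Fibulins are elongated glycoproteins with repeats like those of epidermal growth factor. The short fibulins Fbln5 and Efemp2 (fibulin-4) bind tropoelastin and lysyl oxidases, and elastic fibre assembly in mice depends on both. Fbln5 had 7781 and 8304 intensity units on the wild-type arrays and 1104 and 1192 on the deletion-mutant arrays. The groups were well separated, and the SD within a group was 0.0034 and 0.0028 on the log2 scale. The fall was 6.69-fold (log2 fold change -2.74 ± 0.054 SE, limma adjusted p = 0.000146).

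The second Fbln5 probe, whose sequence is shown above, did not report this transcript level. It gave 24.6 and 10.1 intensity units on the wild-type arrays and 7.49 and 8.45 on the deletion-mutant arrays, none of them well above background. The probes start at positions 2455 and 5730 of the same reference transcript, 3275 bases apart there and also on the genome. The dim probe is the one nearer the 3′ end of that transcript, and its difference was not tested.

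Efemp2 had the smallest fitted fold of the tested members. It measured 19139 and 20899 intensity units on the wild-type arrays and 12285 and 14163 on the deletion-mutant arrays. The groups did not overlap, and the difference was 1.45-fold (log2 fold change -0.53 ± 0.065 SE, limma adjusted p = 0.00375). The 95% interval of Efemp2, -0.71 to -0.36, lay apart from that of Fbln5, -2.89 to -2.59. The difference between these fold changes was not itself tested.

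The long fibulin Fbln2, which binds elastin, fibrillin-1 and basement membrane proteins, had 19647 and 22437 intensity units on the wild-type arrays. On the deletion-mutant arrays it had 9565 and 11318, below both wild-type arrays. The fall was 1.93-fold (log2 fold change -0.95 ± 0.080 SE, limma adjusted p = 0.00159), with a 95% interval of -1.16 to -0.73. Fbln1, the other long fibulin, had 3 probes that matched 2 transcript entries, and none was well above background on any array. Its signals lay between 5.88 and 25.1 intensity units, with the groups overlapping for each of the 3 probes.

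**Figure D1:**
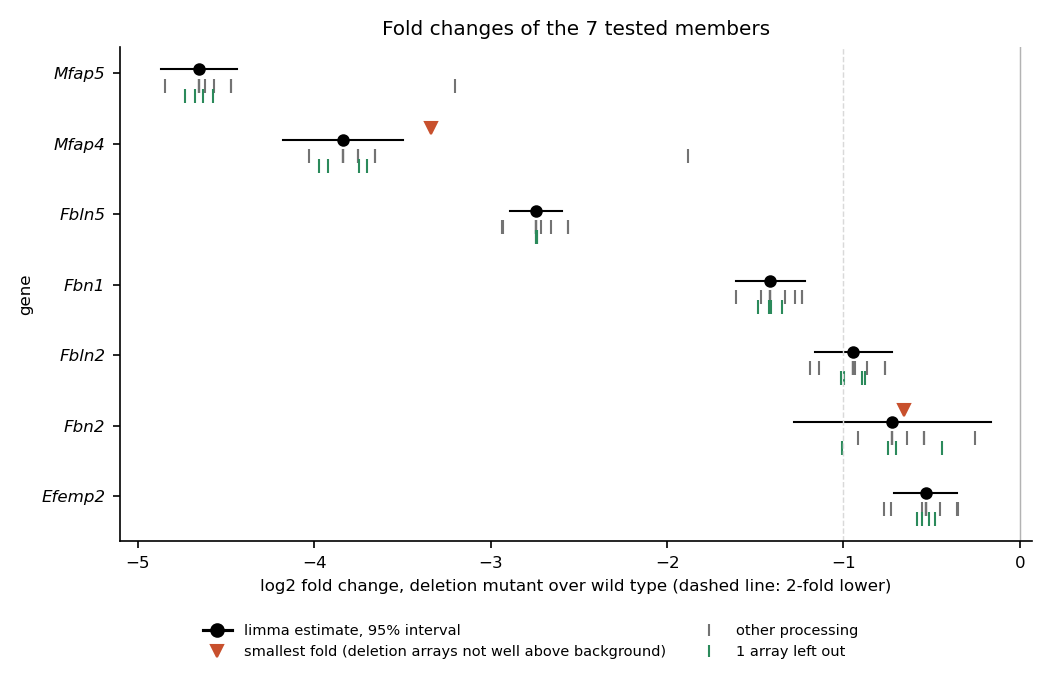
Log2 fold change of the 7 tested members, deletion mutant over wild type, as the limma estimate with its 95% interval. For Mfap4 and Fbn2 a triangle marks the background bound, labelled smallest fold. It is not a minimum, since normexp correction gave a smaller fall for both genes. Grey ticks are other processing choices and green ticks leave out 1 array, and every tick lies below 0, with the smallest fall at -0.25 for Fbn2. Grey ticks of the filters, probe and variance rules and replicate block repeat the estimate, because those choices changed only the p-value.

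In order of the fitted fold change, Mfap5 came first, followed by Fbln5, Fbn1, Fbln2 and Efemp2, and their 95% intervals did not overlap one another. Those of Fbln2 and Efemp2 lay close together. They overlapped slightly when every kept probe was fitted as its own feature, with Fbln2 reaching -0.719 and Efemp2 starting at -0.720. Mfap4 and Fbn2 have no settled place in this order, because their folds are bounds. Of the 7, 4 were at least 2-fold lower by the fitted fold (Mfap5, Mfap4, Fbln5 and Fbn1), against 7.46% of all tested features, and none was at least 2-fold higher, against 5.94%. The filter partly set this for Mfap5 and Mfap4. Of the 4 members well above background on all 4 arrays, 2 (Fbln5 and Fbn1) were at least 2-fold lower, against 4.89% of such features. Both deletion-mutant arrays lay below both wild-type arrays for all 7, as they did for 35.3% of all features. Among the 18093 fold changes, counted from the lowest, Fbln5 ranked 192, Fbn1 801, Fbln2 1519 and Efemp2 2911.

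**Figure D2:**
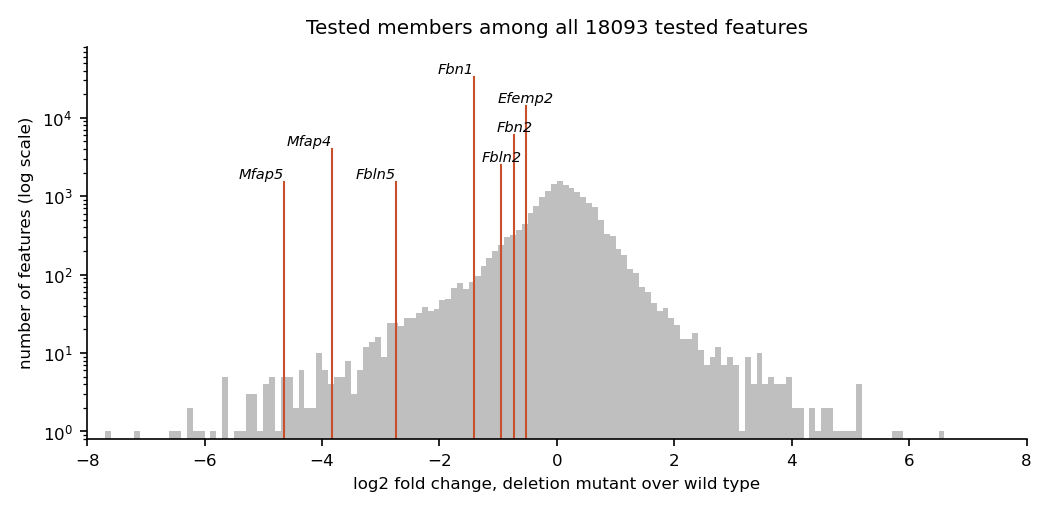
Number of tested features by log2 fold change, deletion mutant over wild type, on a log count axis, with the 7 tested members marked by lines. All 7 lie left of the median of all features, 0.066, from Efemp2 at -0.53 to Mfap5 at -4.65.

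The 2 arrays of a group lay in different rows of the slide, and each row held 1 array of each group, so every difference was also read within a row. Mfap5 differed by -4.55 (log2) in row 1. Fbln5 differed by -2.74 in both rows. Fbn1 differed by -1.35 and -1.48, Fbln2 by -0.96 and -0.93, and Efemp2 by -0.56 and -0.50. Fbln5, Fbn1, Fbln2 and Efemp2 were thus lower in the deletion mutant within both rows. No within-row difference is given where the deletion-mutant array was not well above background, which was so for Mfap5 in row 2 and for Mfap4 and Fbn2 in both rows. All 7 passed with the row, which is also the replicate number, as a block.

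The promoter windows of the members were read for short motifs, since the 7 tested genes moved in the same direction. RefSeq windows on GRCm38.p6 were listed for 6 members, Fbn1, Fbln1, Fbln2, Fbln5, Efemp2 and Mfap2, with 11 start sites among them, several of which overlap. None was listed for Eln or for the tested genes Fbn2, Mfap4 and Mfap5. The counts below thus cover only Fbn1, Fbln2, Fbln5 and Efemp2 of the tested genes, together with the untested Fbln1 and Mfap2. The 250 bases before 1 start site of Fbln5, Fbn1 and Fbln2 are shown, 5′ to 3′ on the gene's strand, with matches to the motifs below in capitals.
Fbln5, chr12:101819120-101819369, minus strand: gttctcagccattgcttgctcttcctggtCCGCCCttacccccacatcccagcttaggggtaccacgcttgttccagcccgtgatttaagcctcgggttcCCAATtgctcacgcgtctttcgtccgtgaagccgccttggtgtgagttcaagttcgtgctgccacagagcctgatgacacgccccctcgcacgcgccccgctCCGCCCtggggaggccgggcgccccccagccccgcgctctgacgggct
Fbn1, chr2:125506439-125506688, minus strand: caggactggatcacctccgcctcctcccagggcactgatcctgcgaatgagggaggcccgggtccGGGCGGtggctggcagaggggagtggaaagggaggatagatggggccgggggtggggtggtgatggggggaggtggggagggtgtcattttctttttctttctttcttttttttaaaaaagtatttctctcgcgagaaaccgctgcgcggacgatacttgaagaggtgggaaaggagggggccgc
Fbln2, chr6:91212514-91212763, plus strand: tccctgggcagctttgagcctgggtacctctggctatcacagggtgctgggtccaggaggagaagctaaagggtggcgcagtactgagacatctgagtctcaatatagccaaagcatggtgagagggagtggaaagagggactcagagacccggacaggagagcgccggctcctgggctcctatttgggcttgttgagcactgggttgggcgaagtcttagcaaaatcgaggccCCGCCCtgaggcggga

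The motifs, searched on both strands, were the GC box, spelled GGGCGG, the CCAAT box, the TATA box, spelled TATAAA, the AP-1 site, spelled TGANTCA, a TEAD site, spelled GGAATG, and the CArG box of serum response factor. The GC box was in 8 of the 11 windows, of all 6 genes, and in 32.7% of 32807 windows of all genes. The GC content of the 11 windows ranged from 46.4% to 78.8%, against a median of 52.4% over all windows. It was 59.2%, 58.8% and 65.2% in the printed windows of Fbn1, Fbln2 and Fbln5. The other Fbln5 window, which is not printed, had 49.6% and no match to any of the motifs. No member window held the TATA box, the AP-1 site or the CArG box, which 12.4%, 6.75% and 1.47% of all windows hold. The CCAAT box was in 2 windows, of Fbln5 and Mfap2, against 33.8% of all, and the TEAD site in 1, of Mfap2, against 12.6%. These matches describe the letters of these windows and say nothing about binding.

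Around the members stand genes whose products assemble, crosslink, degrade or bind elastic fibres, which were read as 6 lists of 59 genes, 45 of them tested. In all, 23 fell and 13 rose, and their median log2 fold change was -0.23 against 0.066 for all features. Among all features, 24.2% were lower and 34.6% higher, as given above. The scaling of the arrays moved this balance in all lists, so each list's split is also given under other scalings. Of the called features, 58.9% were higher, and this share was 73.5% under median scaling, 65.9% with spike-in probes, 51.1% under quantile normalization and 38.9% with a 75th percentile taken over only those probes that every array detected. The median of all features was 0.25 under median scaling, 0.15 with spike-in probes, 0.0042 under quantile normalization and -0.13 with the detected probes. No gene described below as having risen or fallen turned its sign under 5 other scalings, the authors' values included. The authors' values are themselves a median scaling and gave nearly the same results as it, so they add little to the check. The calls of Ltbp3, Loxl3, Glb1, Smtn, Tgfb3 and Adamtsl5 held under 3 of these 5 scalings, and those of Timp1, Vim and Pecam1 under 4. Mfap3 and Timp2, both counted as lower in their lists, held their calls under 2. A second kept probe of Timp2 gave a log2 fold change of only -0.021.

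**Figure D3:**
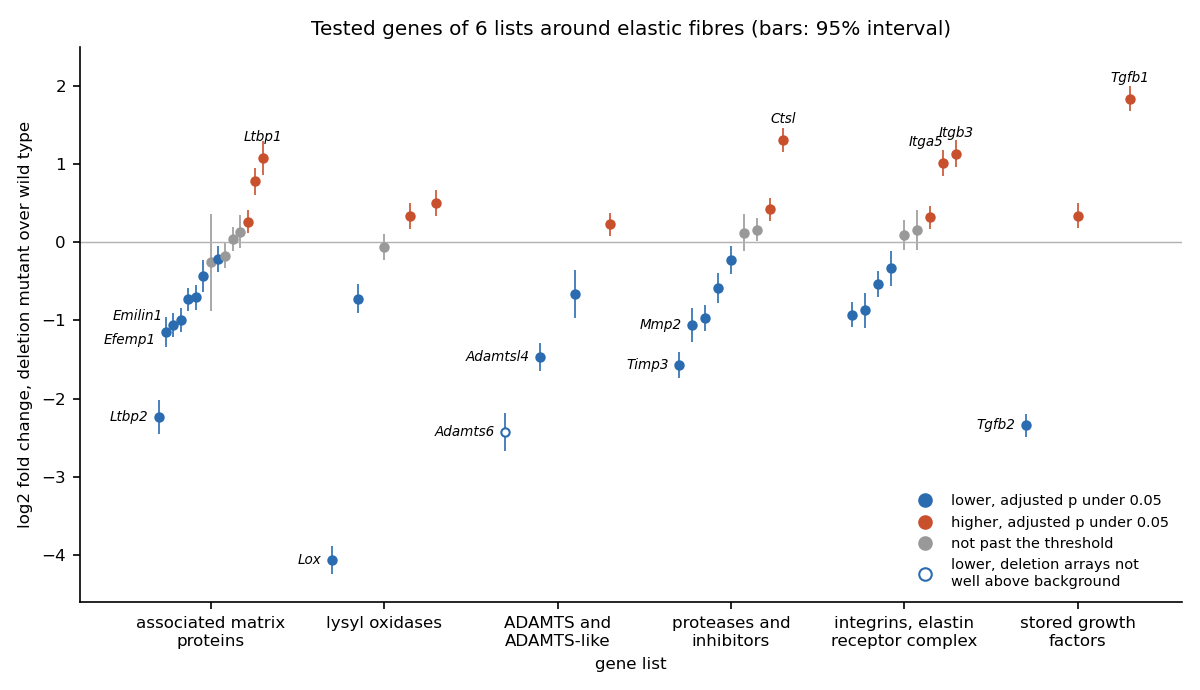
Log2 fold change of the 45 tested genes of 6 lists around elastic fibres, deletion mutant over wild type, with 95% intervals and genes named where the change was at least 2-fold. Lox, at -4.06, lies lowest and Tgfb1, at 1.84, highest, and each list except that of the ADAMTS proteins holds at least 2 genes above 0.

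Lox, the main lysyl oxidase that crosslinks elastin and collagen, had the largest fall of the 45. Its log2 signal relative to the 75th percentile was 4.58 and 4.48 on the wild-type arrays and 0.49 and 0.44 on the deletion-mutant arrays. The groups were far apart, a 16.7-fold fall (log2 fold change -4.06 ± 0.066 SE, limma adjusted p = 0.000146), and its second kept probe gave -4.18. Loxl1, the lysyl oxidase that mouse genetics ties most closely to elastin, fell 1.65-fold. Loxl4 rose 1.42-fold and Loxl3 1.27-fold, while Loxl2, with a log2 fold change of -0.058, did not pass. A second probe of Loxl4 gave -0.066, so its probes disagree. The split of 2 higher and 2 lower became 1 and 3 with the percentile of detected probes and 1 and 2 under quantile normalization.

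Of 15 tested matrix proteins associated with microfibrils or elastin, 8 fell and 3 rose. The latent TGF-beta binding proteins, which are relatives of the fibrillins, split: Ltbp2 fell 4.72-fold, whereas Ltbp1 rose 2.11-fold, Ltbp4 1.72-fold and Ltbp3 1.20-fold. Ltbp2 binds fibrillin-1 without binding TGF-beta, and the 3 that rose are those that carry latent TGF-beta. Efemp1 (fibulin-3), another short fibulin, fell 2.21-fold and Emilin1, which sits between elastin and the microfibril, 2.08-fold. Dcn (-0.17), Tnxb (-0.26), Hspg2 (0.14) and Vcan (0.042) did not pass, and Emilin3, Fbln7 and Vtn were not tested. Median scaling gave 5 higher and 7 lower, quantile normalization 2 and 10, and the detected probes 2 and 9.

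Among the ADAMTS and ADAMTS-like proteins that bind fibrillin, 4 of 8 could be tested. Adamtsl4, which promotes fibrillin-1 deposition, fell 2.77-fold and the protease Adamts10 1.58-fold. Adamts6 was lower with a background bound of 1.38-fold, since its deletion-mutant arrays were not well above background. Adamtsl5 rose 1.17-fold, and its call was lost under quantile normalization and with the detected probes, which leaves 0 higher and 3 lower. Its other kept probe gave a larger log2 fold change, 0.997. The median of the list was -1.07, or -0.57 with Adamts6 at its bound.

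Of 9 tested proteases and metalloprotease inhibitors, 5 fell and 2 rose. Ctsl, a cathepsin that can degrade elastin, rose 2.48-fold and the inhibitor Timp1 1.34-fold. Timp3, the inhibitor that stays bound to the matrix, fell 2.98-fold, the gelatinase Mmp2 2.08-fold and the membrane-bound Mmp14, which activates it, 1.96-fold. Elane (0.12) and Mmp9 (0.16) did not pass, and the elastase Mmp12, Mmp7 and Ctss were at background on all 4 arrays. Median scaling and spike-in probes gave 3 higher and 4 lower, and quantile normalization 1 and 5.

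Cell-surface receptors were mixed, with 3 of 9 tested genes higher and 4 lower. The integrin chain Itgb3 rose 2.20-fold and Itga5, the fibronectin-binding chain, 2.02-fold, while Itgb5 fell 1.90-fold and Itga8 1.83-fold. Itgav, the alpha chain that pairs with Itgb3 and Itgb5 and binds RGD sites of fibrillin and fibulin-5, had a log2 fold change of 0.092 and did not pass, nor did Itgb1 at 0.16. In the elastin receptor complex, Glb1 rose 1.25-fold, while Neu1 fell 1.45-fold and Ctsa 1.26-fold, a call that held under 2 of the 5 other scalings. Median scaling gave 5 and 3, spike-in probes 3 and 3, and quantile normalization and the detected probes 2 and 4.

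Of the 6 listed growth factors that microfibrils hold, only the forms of TGF-beta were detected. Tgfb1 rose 3.58-fold (log2 fold change 1.84 ± 0.059 SE, limma adjusted p = 0.000278) and Tgfb3 1.27-fold. Tgfb2 fell 5.08-fold (-2.34 ± 0.055 SE, limma adjusted p = 0.000177). The call of Tgfb3 was lost under quantile normalization and with the detected probes, which leaves 1 higher and 1 lower. Bmp2, Bmp4 and Bmp7 were at background on all 4 arrays.

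Markers of cell types moved as well, and their part in the falls of the members was not tested. Of the 7 fibroblast markers, 6 fell, led by Col1a1 (2.37-fold), Pdgfrb (2.12-fold) and Col3a1 (2.08-fold), and Vim rose 1.17-fold. Their summed signal, in multiples of the array's 75th percentile, was 1178 to 1230 in wild-type and 792.9 to 815.9 in deletion-mutant arrays. Of 7 smooth muscle markers, Acta2 fell 16.0-fold and Tagln 4.71-fold, Cnn1 fell with a background bound of 3.32-fold, and Smtn rose 1.21-fold. The summed smooth muscle signal was 98.2 to 101 in wild-type and 24.6 to 25.0 in deletion-mutant arrays. Myh11, Des and Lmod1, which define mature smooth muscle, were at background on all 4 arrays. Of 5 epithelial markers, Epcam, Cdh1, Krt18 and Krt19 were at background on all arrays, and Krt8 was higher by at least 2.79-fold in the deletion mutant. The summed signal of the 5 markers was 0.13 to 0.17 in wild-type arrays, where all were at background. It was 0.34 to 0.42 in deletion-mutant arrays, where only Krt8 was well above background. Of 5 markers each, 2 endothelial, 3 leukocyte and 2 cartilage or bone markers were tested, and their changes were under 2-fold. All of these were well above background on all 4 arrays. Itgam fell 1.89-fold, with a log2 fold change of -0.38 on its second kept probe, and Pecam1 fell 1.32-fold. Runx2 rose 1.63-fold and Sox9 1.39-fold, while Kdr, Cd3e and Cd68 did not pass. Cdh5, Tek, Tie1, Ptprc, Acan and Bglap were at background on all arrays.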

How the data were processed

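Per the file headers, the 4 arrays (design on mm9) were read with Agilent Feature Extraction 10.10.1.1 under protocol GE1_1010_Sep10. The deposited files give each spot's processed signal as linear intensity, background-subtracted and detrended, with flags of 0 or 1. The authors' deposited log2 values differ from the log2 processed signal by a constant for each array (within 0.01 for 100% of probes), which is median scaling.

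Flagged spots and control spots were left out, spots of each probe were averaged on the log2 scale, and each array's 75th percentile was subtracted. A probe was kept if both arrays of either group were well above background (25162 probes), and each gene name was represented by its brightest kept probe, which gave 18093 features. Groups were compared with limma 3.58.1 (lmFit, eBayes) in R 4.3.3, with 2 residual degrees of freedom and Benjamini-Hochberg adjustment over all features at 0.05. The number of arrays limits the precision. Accessions of all 10 members matched RefSeq genes with the same symbol. Figures used Python 3.11.15 and matplotlib 3.10.9, and the fit was tested on simulated data.

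All member probes were described. Of the other lists, up to 3 genes per direction with the largest called change were named, and any group of 5 or fewer. Mfap3 and Timp2 were named besides, because their calls depend on the scaling. The members and lists were chosen with earlier results of these data known. The alternatives were normexp background correction, 4 other scalings, the authors' values, 2 background filters, other probe and variance rules, the replicate block and leaving out each array. One probe sequence and 1 marker gene are not reported here.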

Additional observations from a re-analysis of the deposited data

How the results depend on the processing

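All 7 tested members stayed lower under each of the alternatives that gave them a value. The background filters, the other probe and variance rules and the replicate block left every member's fold change as it was and changed only its p-value. The direction could change only under normexp correction, the scalings and leaving out an array. Fbn1, Fbln2, Fbln5, Efemp2, Mfap4 and Mfap5 kept an adjusted p under 0.05 in limma wherever they were tested with all 4 arrays. Fbn2 lost its call under 6 of 15, with log2 fold changes from -1.01 to -0.25 (besides those above, adjusted p = 0.145 without a background filter and 0.0799 with the authors' values). The authors' values are also a median scaling, so the 6 hold nearly the same setting more than once. With the filter on all 4 arrays, 4 members and 4 member probes were called in place of 7, since Fbn2, Mfap4 and Mfap5 are not tested there. Without a background filter, 6466 features were called in place of 10631. Leaving out each array gave 7815 to 9561 called features, 6 to 7 called members, and 27 to 32 called genes of the 6 lists in place of 36. The replicate numbers match the slide rows in the file headers, but same-numbered arrays deviated together only weakly (correlation 0.047 across 18093 features), so they were not treated as pairs. With the replicate block, 9990 features and 7 members were called. The lowest signal well above background was 25.9 to 35.8 intensity units per array, which leaves Eln, Fbln1 and Mfap2 without a comparison.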
